A study of Mus musculus with 18 samples.

Results

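The genes Bcl11b, Tcf7, Lef1, Gata3 and Ets1 encode transcription factors that establish or maintain T cell identity, and their neighbourhoods were examined for cohesin and CTCF occupancy in thymocytes with and without the chromatin organiser SATB1. Peaks were taken from 7 deposited lists when their summit lay in the gene body or within 100 kb of it, and for Bcl11b and Gata3 also in the flanks to 1 Mb on either side. This gave 660 of 207027 peaks within 100 kb and 1080 peaks with the flanks. The genes were chosen by name, with no measured value of these data in the rule, but with earlier results of these data known.

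The samples were sorted double-positive (DP) thymocytes, the CD4+CD8+ stage of T cell development, from the thymus of mice with an induced knockout of Satb1 (Satb1 KO) and of WT mice. The labels give tamoxifen as the treatment of both genotypes, call the knockout vKO without saying what the letter stands for, and name neither the Cre driver nor the age of the mice. Chromatin was profiled by CUT&RUN, in which an antibody directs a nuclease to cut out the DNA beside its target, here SMC1A, a core subunit of cohesin, or CTCF, the zinc finger protein at which cohesin often halts. There were 2 Satb1 KO and 2 WT lists for SMC1A, and 2 Satb1 KO lists and 1 WT list for CTCF, each called on 1 library. The series also holds a second WT CTCF sample and H3K27ac, IgG and input samples, which were not analysed here.

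BCL11B is required for commitment to the T lineage, and its gene is switched on during that step. TCF-1, the product of Tcf7, acts downstream of Notch signalling at the start of the T cell programme, and LEF1 is its close relative and partly replaces it in DP cells. GATA3 is needed from the earliest T cell progenitors and again for the CD4 lineage, and ETS1 is a widely acting lymphoid factor needed for efficient thymocyte maturation. Bcl11b and Gata3 are both followed, downstream, by long stretches with few genes in which distant T cell enhancers are known from other work. Cohesin forms loops by extruding DNA until it meets CTCF, so peaks of both mark candidate loop ends.

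The starts of 4 of the 5 genes could be shown as sequence (RefSeq, GRCm38.p6, the assembly that mm10 represents), because the occupancy at these starts differed from gene to gene. Each line gives the 250 bases before an annotated start, 5′ to 3′ on the gene's own strand. Capitals mark matches to the letters searched on both strands: AGGGGGC for part of the CTCF motif, CCGGAAG for ETS factors, AGATAA for GATA factors and CTTTGA for TCF-1 and LEF1. The matches do not overlap one another.
Gata3, chr2:9878601-9878850, minus strand: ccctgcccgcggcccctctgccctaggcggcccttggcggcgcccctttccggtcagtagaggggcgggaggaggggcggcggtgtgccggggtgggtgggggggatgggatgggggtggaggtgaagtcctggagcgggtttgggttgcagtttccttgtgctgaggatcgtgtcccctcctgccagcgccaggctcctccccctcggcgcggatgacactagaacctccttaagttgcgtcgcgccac
Bcl11b, chr12:108003415-108003664, minus strand: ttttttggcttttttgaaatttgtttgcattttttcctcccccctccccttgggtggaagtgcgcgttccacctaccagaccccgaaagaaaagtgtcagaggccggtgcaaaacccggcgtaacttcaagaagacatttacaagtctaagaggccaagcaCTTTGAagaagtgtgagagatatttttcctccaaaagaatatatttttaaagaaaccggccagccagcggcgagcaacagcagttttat
Lef1 first start, chr3:131110047-131110296, plus strand: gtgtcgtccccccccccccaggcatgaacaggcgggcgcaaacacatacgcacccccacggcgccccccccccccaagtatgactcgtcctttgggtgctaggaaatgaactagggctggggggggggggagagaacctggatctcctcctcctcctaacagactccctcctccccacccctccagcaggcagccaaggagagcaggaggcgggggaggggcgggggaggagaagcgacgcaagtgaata
Tcf7 inner start, chr11:52282596-52282845, minus strand: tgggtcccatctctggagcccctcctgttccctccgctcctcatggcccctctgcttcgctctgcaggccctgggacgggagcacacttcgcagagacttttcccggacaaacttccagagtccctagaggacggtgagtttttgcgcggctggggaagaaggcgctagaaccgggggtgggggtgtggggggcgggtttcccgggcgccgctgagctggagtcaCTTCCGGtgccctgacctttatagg

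Gata3 was the most completely occupied of these starts. Its 300-base promoter window, 250 bases before to 50 after the start, overlapped a peak in all 7 lists, a state shared by 15.5% of 32851 promoter windows. The Bcl11b window was held by the SMC1A lists of KO replicate 1 and of both WT replicates and by the CTCF lists of KO replicate 1 and WT replicate 1. The windows of the first pair of Lef1 starts were held by the same 3 SMC1A lists and by no CTCF list. The Lef1 window at 131112791 was held by all 4 SMC1A lists and the CTCF list of KO replicate 1, and that at 131156294 by no list. The inner Tcf7 window was held by 4 lists, the SMC1A lists of KO replicate 2 and WT replicate 2 and the CTCF lists of KO replicate 1 and WT replicate 1. The outer Tcf7 window was held by the SMC1A list of WT replicate 2 only, so occupancy also differed between starts of a gene. Over all promoters, the share held ranged from 22.9% to 27.1% in the SMC1A lists and from 19.0% to 34.2% in the CTCF lists.

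The printed sequences differed in their letters. Bcl11b held CTTTGA 89 bases before its start, letters present in 13.8% of all 32851 windows of 250 bases, and the inner Tcf7 start held CTTCCGG, the ETS letters on the other strand, 25 bases before it, present in 6.91%. The CTCF letters, present in 9.43% of windows, and the GATA letters, present in 9.99%, were in none of the 4 sequences, and the printed Gata3 and Lef1 sequences held no match. Another Lef1 start, at position 131156294, had the letters for TCF-1 and LEF1 on the other strand 180 and 120 bases before it. The printed Gata3, Lef1 and Tcf7 sequences were rich in G and C, at 70.0%, 66.4% and 64.4% of bases, whereas the Bcl11b sequence held 44.8%, against a median of 52.4% over all windows. A match describes letters in a window and was not tested for binding.

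**Figure D1:**
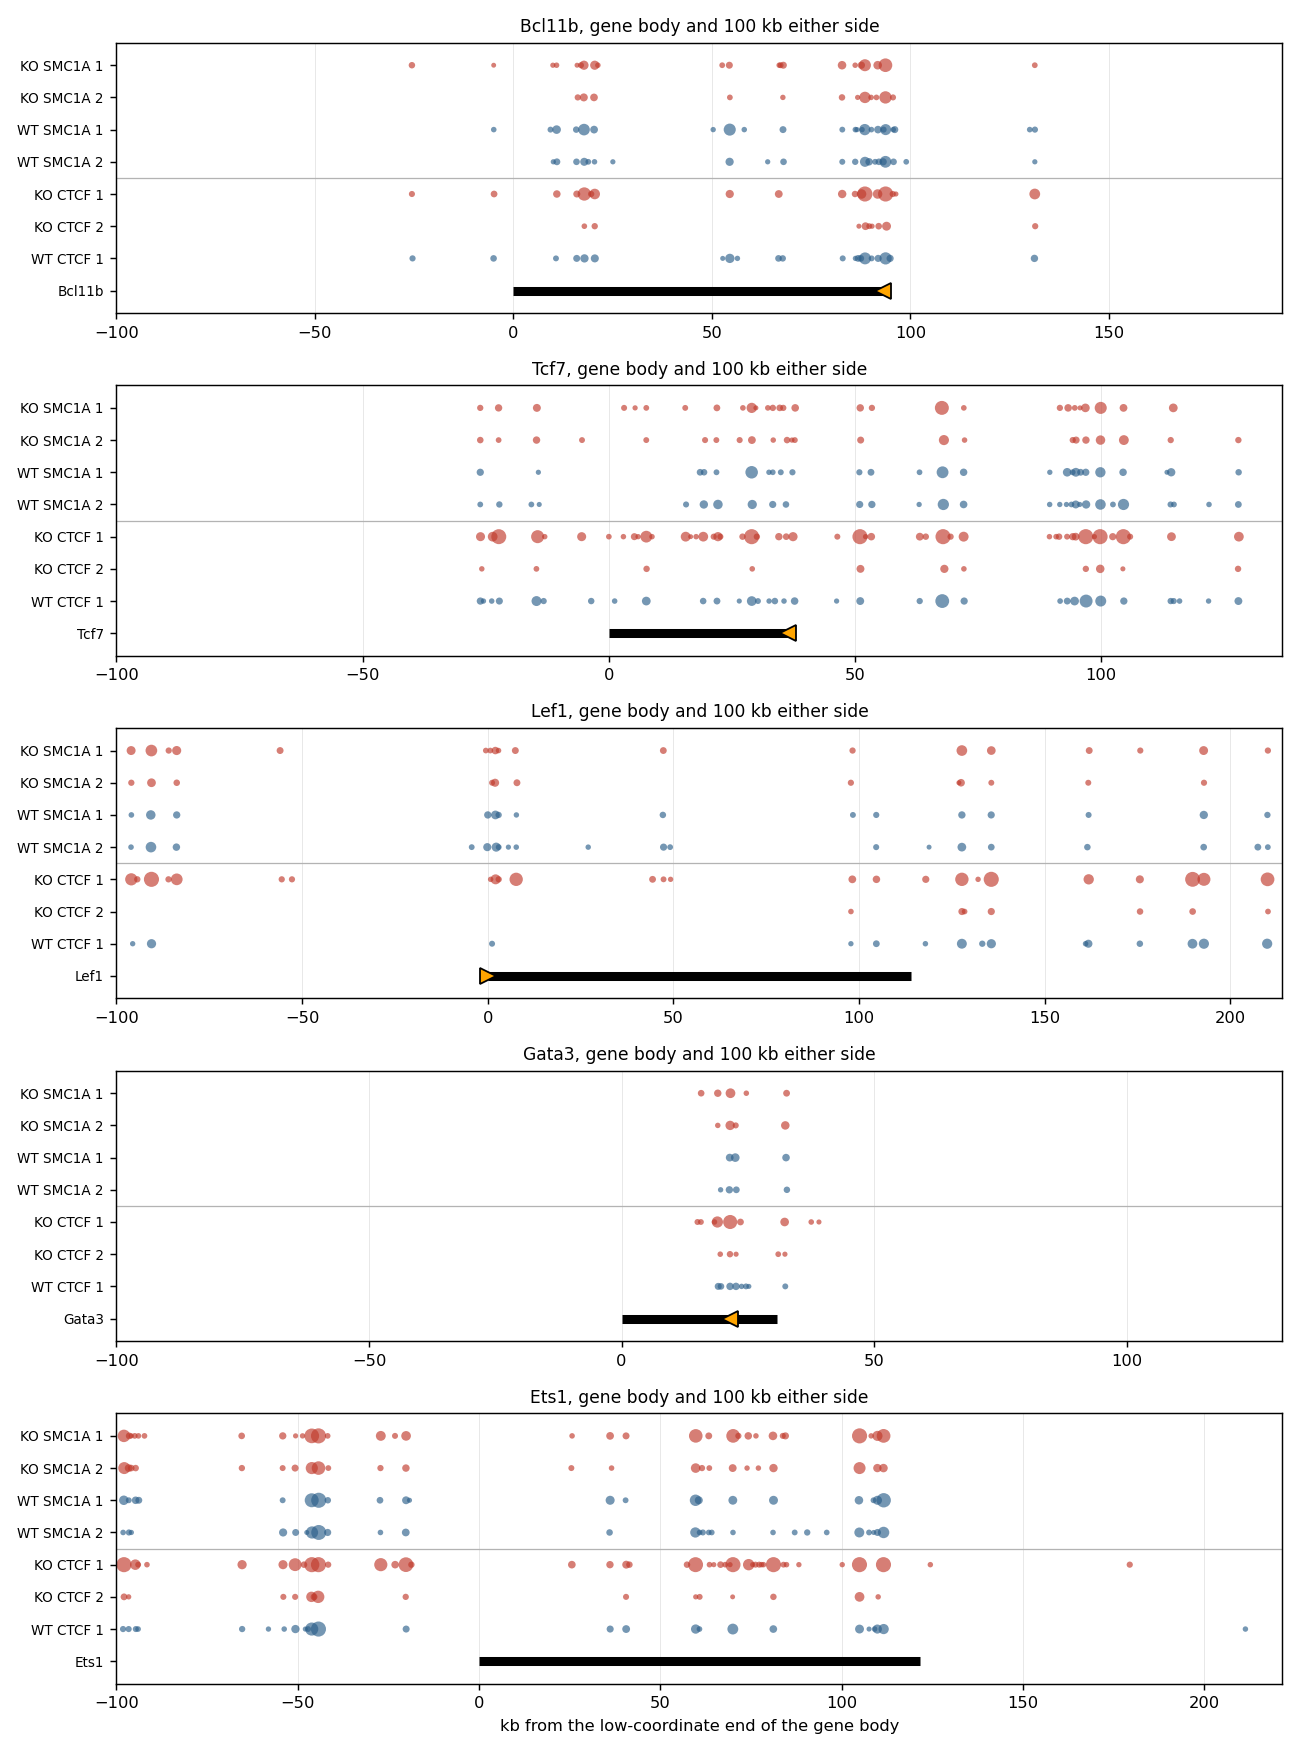
Peaks of the 7 lists along each gene body (black bar) and 100 kb either side, by distance in kb from the low-coordinate end of the gene; Satb1 KO lists are red and WT lists blue, dot area grows with the authors' −log10 q up to 60, and the orange arrow is the first start listed in the promoter table, pointing along transcription (no arrow where none is listed). Gata3 holds 3 to 5 SMC1A peaks a list, all in or just beside the gene, whereas Tcf7 holds 23 to 29 spread over the window.

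The loci differed widely from each other. Within 100 kb, Tcf7 held 28 and 23 SMC1A peaks in the KO lists, against 26 and 29 in the WT lists. Ets1 held 32 and 24 in KO and 21 and 27 in WT. Bcl11b held 21 and 12 in KO and 23 and 21 in WT. Lef1 held 18 and 12 in KO and 15 and 20 in WT. Gata3 held 5 and 4 in KO and 3 and 4 in WT, the fewest of the 5 in every SMC1A list.

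Since the windows differ in length, peaks per kb were ranked among 21883 protein-coding genes within each list. Tcf7 stood above 99.7% and 99.6% of genes in the KO SMC1A lists and above 99.85% and 99.96% in the WT lists. Ets1 stood above 98.6% and 98.0% in KO and above 95.8% and 98.6% in WT. Bcl11b stood above 94.0% and 86.3% of genes in KO and above 97.8% and 96.9% in WT. Lef1 stood above 88.3% and 83.9% in KO and 89.0% and 95.1% in WT. Gata3 was ordinary, above 54.1% and 56.6% of genes in KO and 48.7% and 56.2% in WT. Tcf7 stood highest of the 5 genes in each of the 4 lists and Gata3 lowest, while the ranges of Ets1, Bcl11b and Lef1 overlapped their neighbours in this order.

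CTCF lists varied more with the library. Tcf7 held 48 and 11 CTCF peaks in the KO lists and 34 in the WT list. Ets1 held 42 and 15 in KO and 25 in WT, Lef1 held 25 and 7 in KO and 15 in WT, Bcl11b held 18 and 9 in KO and 21 in WT, and Gata3 held 9 and 5 in KO and 8 in WT. For each gene other than Bcl11b the WT count lay between the 2 KO counts. The 2 KO CTCF lists held 55750 and 22928 peaks in all and the WT list 38989.

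**Figure D2:**
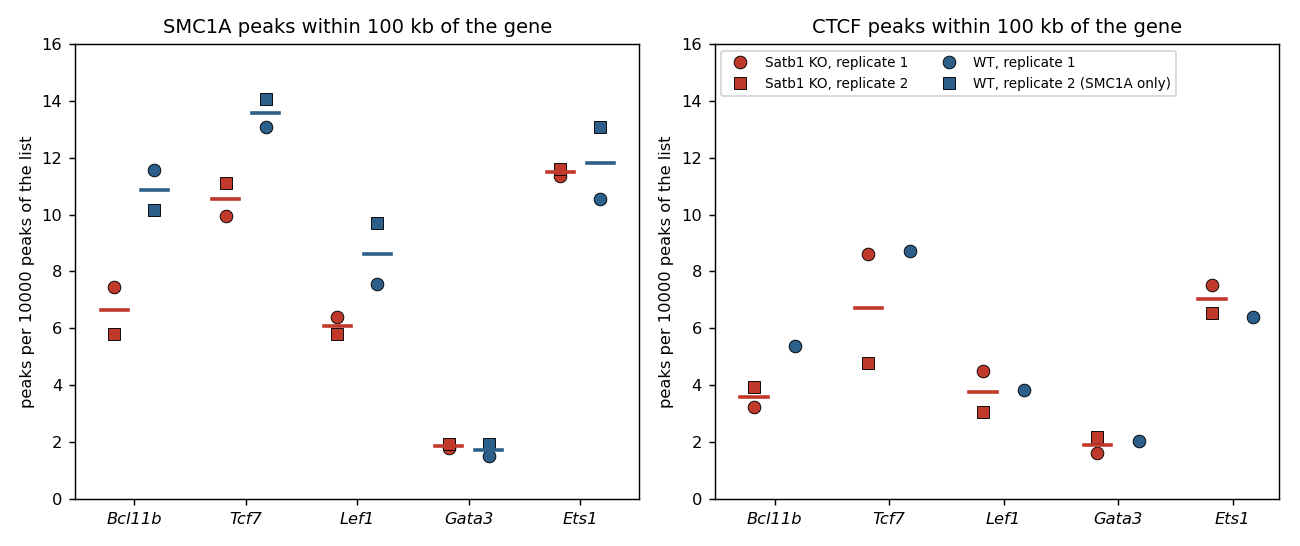
Peaks within 100 kb of each gene per 10000 peaks of the list, for SMC1A (left) and CTCF (right), with Satb1 KO lists red and WT lists blue, circles for replicate 1, squares for replicate 2 and bars for the mean of 2 lists. The KO and WT SMC1A points do not overlap at Bcl11b, Tcf7 and Lef1 and overlap at Gata3 and Ets1. Both KO lists lie below both WT lists at 36.2% of 8862 tested genes.

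Scaled to list length, Bcl11b was the member whose SMC1A density differed past the threshold. It held 7.46 and 5.80 SMC1A peaks per 10000 peaks of the KO lists, against 11.6 and 10.2 of the WT lists. The 2 genotypes did not overlap, a state in this direction shared by 36.2% of 8862 tested genes. The log2 density was −0.71 ± 0.17 (SE, n = 2 lists each), lower in KO, with an adjusted p of 0.00523 by limma over all 8862 genes, of which 169 were called in either direction (1.91%) with 86 lower in KO (0.970%) and 83 higher (0.937%). The median of all tested genes was −0.13 on the same scale, and lay on the same side.

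That call was not stable. Labels give each replicate number its own batch, and with the replicate as a block the Bcl11b value was the same with an adjusted p of 0.106. With the median of each list set to 0 it was −0.61 with an adjusted p of 0.404, and 0 genes were called there (931 at an unadjusted p under 0.05). With 1 list left out, the other list of that genotype stands alone and is assumed to vary like the remaining pair. Without KO replicate 2 it was −0.54 (adjusted p 0.222), without WT replicate 1 it was −0.62 (adjusted p 0.589) and without WT replicate 2 it was −0.80 (adjusted p 0.560). Within batch 1 the raw counts were 21 in KO and 23 in WT from lists of 28151 and 19882 peaks, and within batch 2 they were 12 and 21 from lists of 20689 and 20638. By regions, 7 were in the KO list only and 7 in the WT list only in batch 1, against 1 and 8 in batch 2. Whether replicates were separate mice is not in the labels, so these p-values cannot be read as spread between mice. In the main fit limma took each gene's variance wholly from the trend over all tested genes. The SE and p of Bcl11b there are thus not the spread of its own lists. Without the filter on low values the trend had less weight, and the same −0.71 had a limma adjusted p of 0.113. Fewer cells holding a peak cannot be told apart from weaker occupancy in each cell.

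The other tested members did not pass. Tcf7 held 9.95 and 11.1 SMC1A peaks per 10000 in KO against 13.1 and 14.1 in WT (log2 density −0.36 ± 0.15, adjusted p 0.192). Lef1 held 6.39 and 5.80 in KO against 7.54 and 9.69 in WT (−0.48 ± 0.19, adjusted p 0.171). Both genes had non-overlapping lists with the same sign as Bcl11b, a state shared by 36.2% of 8862 tested genes. Ets1 held 11.4 and 11.6 in KO and 10.6 and 13.1 in WT (−0.04 ± 0.15, adjusted p 0.946), and its sign was positive with the median of each list set to 0 (0.06), with peaks of −log10 q of 5 or more (0.14) and without WT replicate 2 (0.11). Gata3, at 1.78 and 1.93 in KO and 1.51 and 1.94 in WT, fell under the minimum mean of 5 peaks and was not tested.

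**Figure D3:**
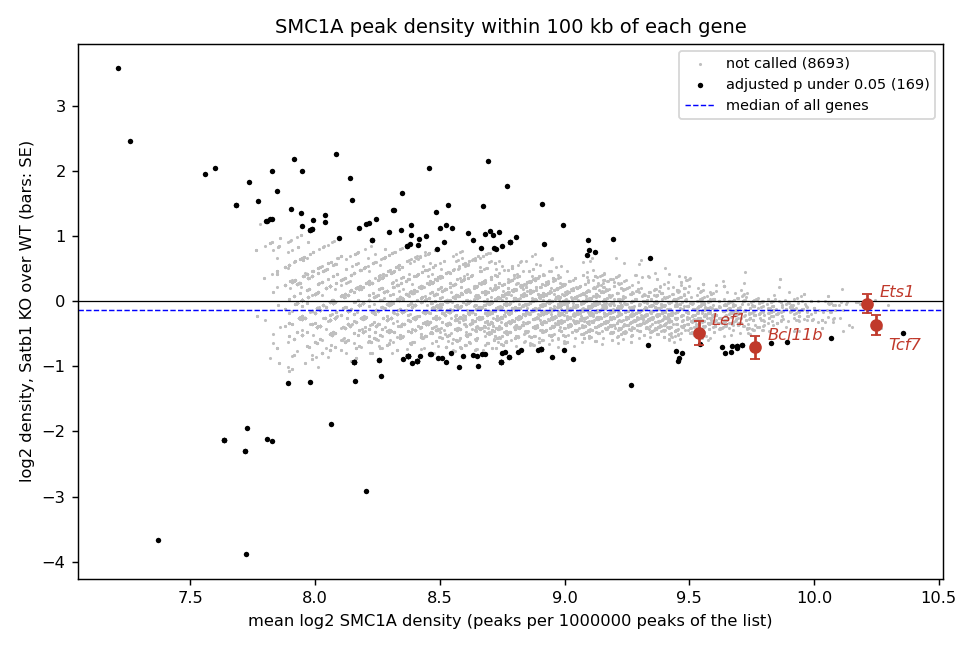
Log2 SMC1A peak density within 100 kb, Satb1 KO over WT, against mean log2 density (peaks per 1000000 peaks of the list) for 8862 protein-coding genes, with the 169 called genes in black, the tested members in red with SE bars and the median of all genes dashed. Bcl11b lies at −0.71 among the called genes, and Lef1, Tcf7 and Ets1 lie at −0.48, −0.36 and −0.04 among genes not called.

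Peaks of the lists of each mark were next merged wherever they overlapped by at least 1 base. The 5 loci held 137 SMC1A regions, of which 48 were in all 4 lists, or 35.0%, the same share as the 35.0% of all 35221 SMC1A regions. Another 52 were in 1 list only. A region was counted as lost when both WT lists and no KO list held it, and as gained when both KO lists and no WT list did. Of the 63 locus regions in both WT lists, 3 were lost, against 4.15% of all such regions of the series. Of the 60 in both KO lists, 4 were gained, against 13.1% over the series. Lost regions thus made up 4.76% and gained regions 6.67%, and neither order against the series held under every setting. With peaks of −log10 q of 5 or more, 4 of 37 locus regions were lost (10.8%, against 4.68% over the series) and 6 of 37 were gained (16.2%, against 12.9%).

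The lost and gained SMC1A regions were weaker than the strongest shared ones, but the ranges overlapped. The 3 lost ones had 7 to 11 fragments at their summit and −log10 q of 2.50 to 5.36. The 4 gained ones had 7 to 20 fragments and −log10 q of 2.78 to 10.7. Regions in all 4 lists had 6 to 102 fragments, with a median of 16, and −log10 q of 1.63 to 127. All 7 overlapped a CTCF region of at least 1 list. Leaving out 1 list moved the lost count to between 6 (9.5%, against 5.9% over the series) and 22 (24.2%, against 15.6%). The gained count moved to between 7 (11.7%, against 21.0%) and 26 (26.3%, against 31.6%), since fewer lists have to agree.

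**Figure D4:**
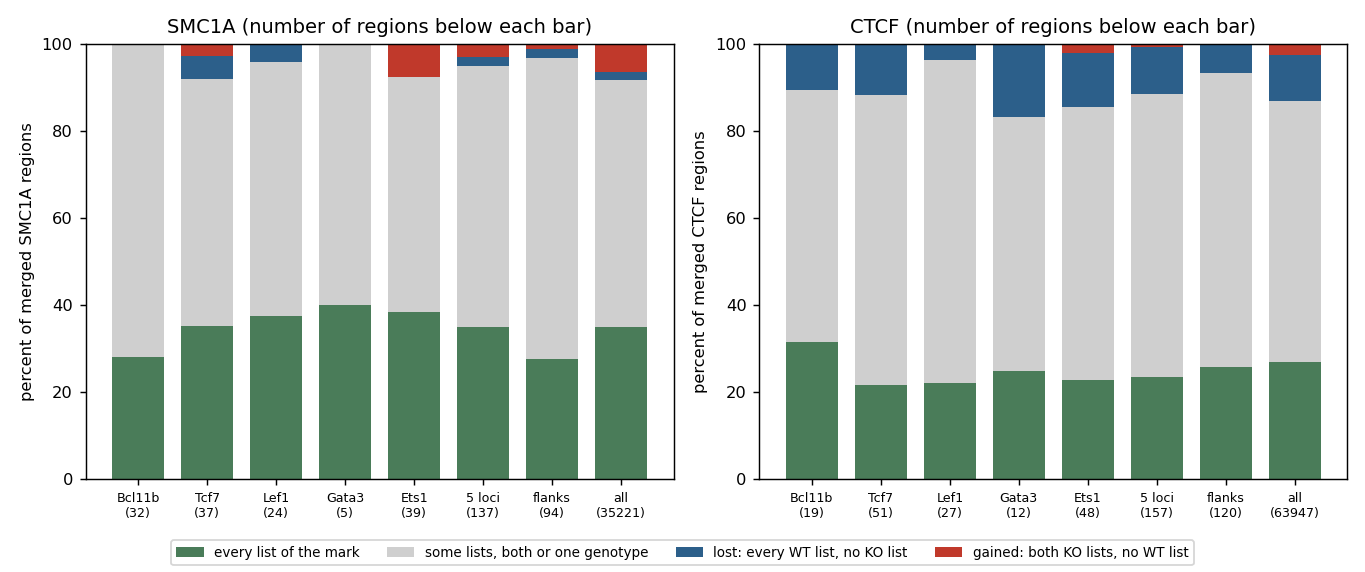
Percent of merged SMC1A regions (left) and CTCF regions (right) held by every list of the mark (green), by some lists (grey), lost (blue) or gained (red), for each locus, the 5 loci together, the flanks of Bcl11b and Gata3, and all regions of the series, with the number of regions under each bar. Shares held by every SMC1A list are 35.0% both at the 5 loci and over all regions.

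At Bcl11b, 32 SMC1A regions lay within 100 kb and 9 were in all 4 lists, with none lost and none gained. The strongest shared region was at the gene's start, chr12:108003490-108004572, with a summit 0.7 kb before the start and −log10 q of 47.8 and 38.3 in KO and 29.6 and 34.4 in WT. The next, chr12:107998713-108001144, lay 4.5 kb inside the gene, with 35.8 and 31.8 in KO and 31.1 and 23.7 in WT. Both ranked in the strongest 12.5% of each list. Another, chr12:107927832-107928521, stood in the gene 75.2 kb from the start, with 18.8 and 12.9 in KO and 33.3 and 13.1 in WT. All 9 shared regions overlapped a CTCF region, as did 5 of the 15 regions found in 1 SMC1A list only.

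Most Bcl11b regions were held by some of the lists. Of its 32 regions, 23 fell in neither the shared nor the lost nor the gained class and 15 were in 1 list only, with a median width of 254 bases against 690 bases for the shared ones. KO replicate 2 held 11 of the 32 regions, the fewest, against 21 in KO replicate 1 and 21 and 18 in WT. With peaks of −log10 q of 5 or more the peak counts were 10 and 7 in KO and 11 and 12 in WT, and the log2 density was −0.63 with an adjusted p of 0.305.

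CTCF at Bcl11b followed the same places. Of 19 CTCF regions 6 were in all 3 lists, led by chr12:108003046-108004641 at the start with −log10 q of 182 and 17.3 in KO and 37.4 in WT. The second, chr12:107998706-108002731, had 70.0 and 11.7 in KO and 35.6 in WT. Across all 5 loci 37 of 157 CTCF regions were in all 3 lists (23.6%, against 27.0% over the series). There were 17 lost regions of the 89 in the WT list, or 19.1%, against 18.9% of all WT CTCF regions. Of the 38 in both KO lists, 1 was gained, against 8.29%. The 17 lost CTCF regions had 7 to 16 fragments at their summit, and with 1 WT list these counts have no replicate on that side.

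Tcf7 had the densest pattern, with 37 SMC1A regions, 13 of them in all 4 lists. The strongest shared region lay upstream, chr11:52313646-52315052, 31.2 kb before the first start and inside the lncRNA gene Gm30217, with −log10 q of 50.6 and 23.8 in KO and 34.7 and 30.9 in WT. A second upstream region, chr11:52345903-52346865, 63.5 kb before the start, had 36.3 and 20.1 in KO and 25.0 and 26.5 in WT. The strongest inside the gene, chr11:52274903-52276697, had 24.6 and 11.8 in KO and 39.5 and 18.9 in WT. The upstream pair was also the strongest CTCF pair of the locus, with −log10 q of 79.5 and 13.8 in KO and 49.2 in WT at Gm30217, and 125 and 15.2 in KO and 29.0 in WT at the farther one.

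Of the 20 Tcf7 regions in both WT SMC1A lists 2 were lost, and of the 16 in both KO lists 1 was gained. The lost ones were chr11:52309463-52309839, also inside Gm30217, with 3.8 and 2.5 in the WT lists, and chr11:52336035-52336258, with 2.6 and 3.0. The gained one, chr11:52254042-52254381 in the Tcf7 body, had 4.0 and 4.4 in the KO lists, and the CTCF region over it was in all 3 CTCF lists. Among 51 CTCF regions 11 were shared and 6 of the 31 in the WT list were lost, with summits in Tcf7, Skp1, Vdac1 or between genes and 9 to 14 fragments each. A region at the inner start, chr11:52282393-52282994, was in 1 list of each genotype, with 6.8 in KO replicate 2 and 6.9 in WT replicate 2. Both lists belong to batch 2.

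Lef1 held 24 SMC1A regions, 9 in all 4 lists. The strongest stood far upstream, chr3:131019222-131020035, 90.6 kb before the first start, with −log10 q of 33.6 and 16.4 in KO and 20.2 and 26.7 in WT. The region at the start, chr3:131109545-131112800, spanned 3256 bases, the widest shared region of the 5 loci, and covered 3 of the 4 listed starts, with 10.7 and 13.3 in KO and 16.4 and 18.2 in WT. The third, chr3:131237610-131238369, lay in the neighbouring gene Hadh, with 27.2 and 11.0 in KO and 9.9 and 16.3 in WT. Of 13 regions in both WT lists 1 was lost, chr3:131214519-131215246 in the last part of Lef1, with 5.4 and 5.0.

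CTCF regions at Lef1 lay before, inside and beyond the gene. By their lowest placing over the 3 lists, the 3 leading ones of its 6 shared CTCF regions lay in Hadh or in Cyp2u1. They stood 13.7 to 75.8 kb past the gene body, the first of them with −log10 q of 89.5 and 9.2 in KO and 18.7 in WT. In the WT list they ranked in the strongest 23.6%, 19.2% and 20.0%, and the best CTCF peak of the locus in the strongest 17.6%. At the starts CTCF was listed in KO replicate 1 only, with 23.1 at chr3:131111859-131112778. The SMC1A region there was in all 4 lists, and the printed bases before the first Lef1 start lay in no CTCF peak of the 3 lists.

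Ets1 held 39 SMC1A regions, 15 of them in all 4 lists, and the strongest signal of all 5 loci. Its strand and starts are not given in the tables used, so positions are by coordinate. Both leading regions lay side by side 44.3 and 46.1 kb below the gene body. At chr9:32591274-32593147 the −log10 q was 127 and 47.3 in KO and 112 and 58.9 in WT, within the strongest 2.52% of each list. At chr9:32589638-32591266 it was 56.6 and 36.9 in KO and 50.6 and 37.3 in WT. CTCF peaked at the same pair, with 235 and 38.6 in KO and 79.9 in WT at the stronger one.

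The 3 gained SMC1A regions of Ets1 were 3 of the 4 gained at all loci and 3 of its 22 regions in both KO lists, a share of 13.6% beside the 13.1% background. They were chr9:32570666-32570978, with −log10 q values of 7.1 and 5.9 in KO, chr9:32661487-32662065, with 3.2 and 4.7, and chr9:32709995-32710791, with 10.7 and 2.8. The last 2 lay in the gene body. None of its 15 regions in both WT lists was lost. The 1 gained CTCF region of the 5 loci was also here, chr9:32581587-32582477, with 18.2 and 5.0 in KO.

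Gata3 held 5 SMC1A regions, 2 of them in all 4 lists, and each overlapped a CTCF region. The region over its start, chr2:9877715-9879987, had −log10 q of 21.7 and 19.6 in KO and 15.8 and 9.8 in WT, and the CTCF region there had 51.4 and 6.2 in KO and 10.4 in WT. The second, chr2:9889217-9889988, 10.9 kb before the start and inside the lncRNA gene 9230102O04Rik, had 7.7 and 15.2 in KO and 10.9 and 6.5 in WT. No region was lost or gained for SMC1A, and 2 of the 6 CTCF regions of the WT list were lost, with 7 and 10 fragments.

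**Figure D5:**
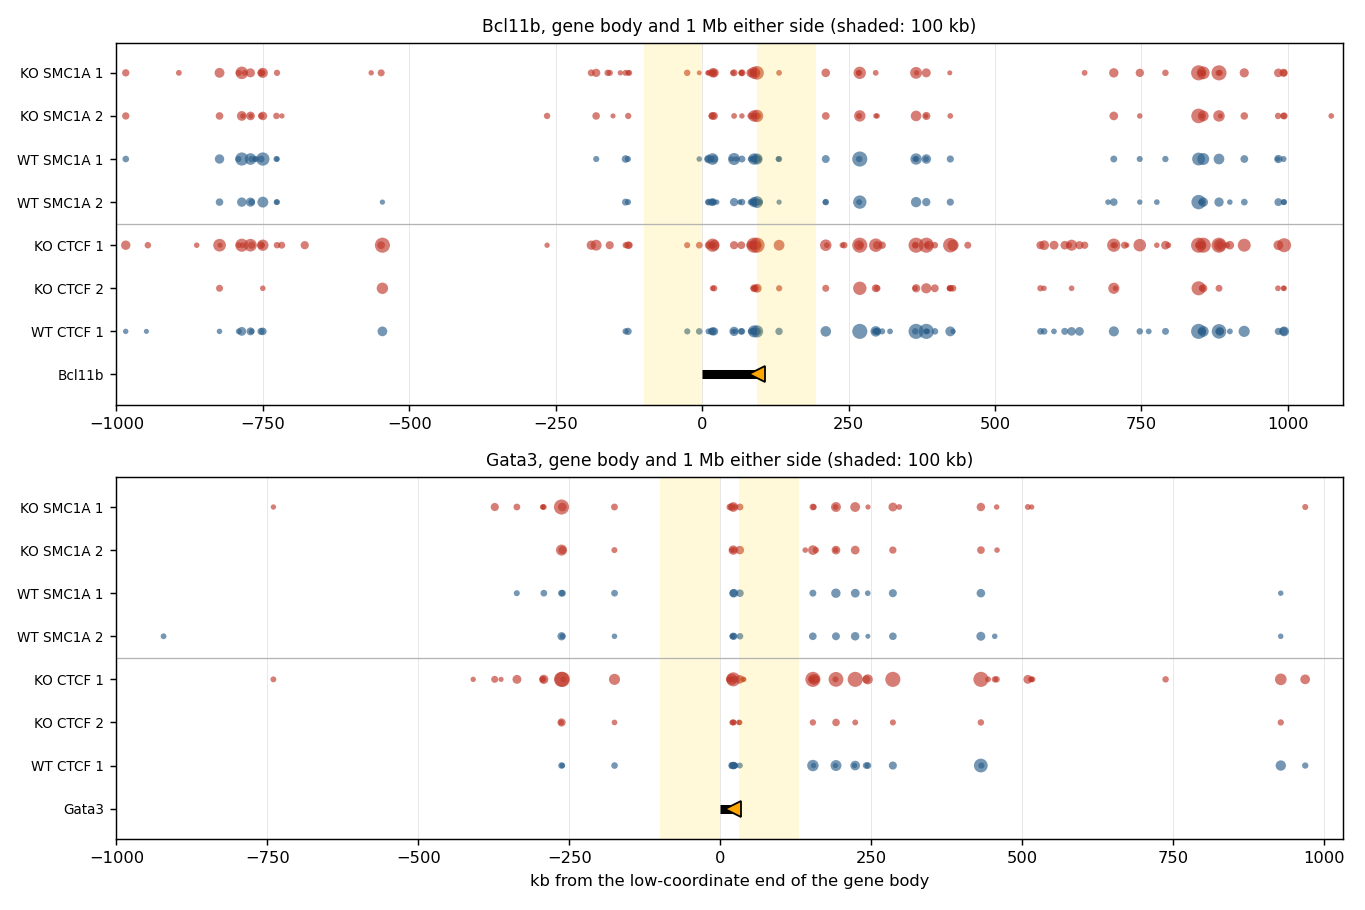
Peaks of the 7 lists from 1 Mb below to 1 Mb above Bcl11b and Gata3, by distance in kb from the low-coordinate end of the gene, drawn as in the map of the 5 loci, with the inner 100 kb shaded; both genes are transcribed towards low coordinates, so the left side is downstream. A cluster 750 to 824 kb below Bcl11b and a pair 262 and 263 kb below Gata3 lie in the lower flanks.

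Both flanks of Bcl11b held fewer SMC1A peaks per length than the locus itself. The lower flank of Bcl11b held SMC1A peaks at 2.33 and 1.56 per 100 kb in KO and 1.67 and 1.11 in WT, against 7.15 and 4.09 in KO and 7.83 and 7.15 in WT in the locus itself. The upper flank held 2.78 and 2.33 per 100 kb in KO and 2.11 and 2.33 in WT. The longest stretch with no summit of any of the 7 lists ran for 281 kb in the lower flank. Gata3 had 1.00 and 0.33 per 100 kb in KO and 0.56 and 0.44 in WT in its lower flank, which had a stretch of 331 kb without a summit, and 1.44 and 1.00 in KO and 0.78 and 0.89 in WT in its upper flank. No other protein-coding gene lies within 1 Mb below Gata3, and 1 lies within 1 Mb below Bcl11b.

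Most SMC1A regions shared by all 4 lists in the Bcl11b desert lay close together. Of 32 SMC1A regions in the lower flank 5 were in all 4 lists, and 4 of these lay together between 843 and 917 kb downstream of the start. The strongest, chr12:107123563-107124816, had −log10 q of 39.8 and 21.8 in KO and 44.2 and 19.9 in WT. It was followed by chr12:107159931-107160963 with 24.0 and 15.6 in KO and 45.2 and 28.4 in WT, and by chr12:107138641-107139531 with 18.0 and 16.0 in KO and 33.5 and 18.6 in WT. The fourth, chr12:107086177-107086709, had 22.4 and 11.0 in KO and 19.6 and 10.7 in WT. All 4 were present in both genotypes. Further SMC1A regions of this flank lay outside the cluster, from 124 to 727 kb below the gene body and at 894 and 984 kb below it. The strongest shared CTCF region of the flank, chr12:107364263-107364623, was also outside it, 546 kb below the gene body. Its −log10 q was 119 and 31.8 in KO and 21.6 in WT.

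In the middle of that cluster lay the 1 region lost from the Bcl11b flanks, chr12:107141029-107141564, 862 kb downstream of the start. Its −log10 q was 6.3 and 7.0 in WT with 12 fragments at the summit in each, the strongest of the 5 lost SMC1A regions of the loci and flanks, and no peak in either KO list. A CTCF region over it was in the lists of KO replicate 1 and WT replicate 1. Over both genes' flanks 2 of 33 regions in both WT lists were lost (6.06%) and 1 of 32 in both KO lists was gained (3.12%), against the same backgrounds of 4.15% and 13.1%. With peaks of −log10 q of 5 or more these were 3 of 23 lost (13.0%, against 4.68%) and 2 of 26 gained (7.69%, against 12.9%).

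Upstream of Bcl11b the flank is gene-rich, with 13 protein-coding genes within 1 Mb, and 13 of its 35 SMC1A regions were in all 4 lists. The strongest, chr12:108757433-108758462 in the lncRNA gene Gm33628, had −log10 q of 76.5 and 55.9 in KO and 42.1 and 54.3 in WT. The second, chr12:108179225-108180244 in Ccnk, had 38.1 and 32.0 in KO and 65.5 and 45.7 in WT. One region in Ccdc85c, chr12:108206649-108207076, was gained, with 3.9 and 2.6 in KO. Of the 39 CTCF regions of the WT list in this flank 7 were lost, 4 of the 6 strongest of them in Ccdc85c.

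In both KO lists the strongest SMC1A peak within 1 Mb of Gata3 lay in the lower flank, whereas in both WT lists it lay in the upper flank. At chr2:9593748-9594607, 284.5 kb downstream of the start, the −log10 q was 81.3 and 29.8 in KO and 8.0 and 14.3 in WT, with 68 and 32 fragments at the KO summits and 16 and 19 at the WT summits. It ranked in the strongest 1.77% and 6.41% of the KO lists and in the strongest 50.1% and 24.5% of the WT lists, ranks that come from lists of different length and give no measure of change. Its neighbour, chr2:9595104-9595917, had 15.8 and 12.6 in KO and 7.3 and 4.2 in WT. CTCF at the first site had 143 and 13.8 in KO and 6.5 in WT. All 7 lists held this site, so it counted as shared, and with no read counts in the files the difference in height was not tested.

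The other shared Gata3 flank regions had closer values. The third downstream, chr2:9681576-9682224, had 7.9 and 4.8 in KO and 7.5 and 3.2 in WT. Upstream, chr2:10079976-10080854 in Atp5c1 had 22.3 and 16.5 in KO and 16.4 and 15.2 in WT. Also upstream, chr2:10288331-10289119 had 14.9 and 11.4 in KO and 15.5 and 17.6 in WT. The 1 lost region of the Gata3 flanks, chr2:10785112-10785420, had 2.8 and 3.2 in the WT lists, and the CTCF region over it was in all 3 lists.

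Over the gene body plus 1 Mb, limma called neither gene. Bcl11b held 67 and 47 SMC1A peaks in KO against 57 and 52 in WT, a log2 density of −0.21 ± 0.11 with an adjusted p of 0.207. Gata3 held 27 and 16 in KO and 15 and 16 in WT, a log2 density of 0.16 ± 0.19 with an adjusted p of 0.629. In the same fit 1974 of 19514 genes were called (10.1%). The Gata3 value turned to −0.02 with peaks of −log10 q of 5 or more.

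Most cohesin at these genes lay with CTCF. Of the 137 SMC1A regions 110 overlapped a CTCF region, or 80.3% (95% Wilson interval 72.8% to 86.1%, which covers counting error only), beside 89.8% over the series. All 48 regions in every SMC1A list did so. Of the 52 regions in 1 SMC1A list only 26 did, beside 74.5% of such regions over the series. Bcl11b had the lowest share, 21 of 32 (65.6%), and Tcf7 held 34 of 37 (91.9%). Against the WT CTCF list alone the share for the 5 loci was 58.4%, beside 70.1% over the series.

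The pathway around these factors gave few calls. Among 15 partners, including Notch1 and its targets, Runx1, Ikzf1 and the E protein gene Tcf3, 12 had enough SMC1A peaks within 100 kb and 0 were called in either direction, beside 1.91% of all tested genes, with a median log2 density of −0.19 against −0.13 for all tested genes. Their windows held 18 gained SMC1A regions at 11 genes, 15.4% of the 117 in both KO lists beside 13.1% over the series, and 2 lost, at Notch3 and Dtx1, 1.92% of the 104 in both WT lists beside 4.15%. Counts are per window: Fli1, the neighbour of Ets1 and a member of the same protein family, had 3 gained regions, 1 of them also in the Ets1 window. Of 12 progenitor or other-lineage genes that are shut at T commitment, such as Spi1 and Lmo2, 5 were tested and 0 called, with 4 gained regions at 4 genes (10.3% of 39) and 1 lost at Lyl1 (3.57% of 28).

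Of 6 DP marker genes 2 were called lower in KO, Cd8a and Cd8b1, which share 1 window and had 21 and 11 SMC1A peaks in KO against 24 and 18 in WT (log2 density −0.69 ± 0.18, adjusted p 0.00964 by limma), beside 0.970% of all tested genes called lower. That call was lost with the replicate block (adjusted p 0.121), with the median of each list set to 0 (−0.59, adjusted p 0.454), with peaks of −log10 q of 5 or more (0.216), with lists of equal length (0.362), without the filter on low values (0.198) and without KO replicate 2, WT replicate 1 or WT replicate 2 (0.329 to 0.654). Of 12 markers of B, myeloid, erythroid and epithelial cells 8 were tested and 0 called. Their windows held 8 gained regions at 4 genes, 10.4% of the 77 in both KO lists, and 1 lost region at Lyz2, 1.45% of the 69 in both WT lists. Peaks of cohesin do not measure expression, so these windows do not identify the cells.

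The genes on other chromosomes with the nearest profile of peak density over the 7 lists were named by the Euclidean distance of log2 density. For Bcl11b the nearest was Il21r, with 18 and 14 SMC1A peaks in KO and 23 and 16 in WT (distance 0.55). Ets1 was the nearest gene to Tcf7 (0.74). For Lef1 the nearest were Pagr1a, Prrt2 and Maz, which share their peaks on 1 stretch of chromosome 7 (0.40), and likewise Pcsk6, Snrpa1 and Selenos for Gata3 (0.28). For Ets1 it was Ltb, with 31 and 22 in KO and 23 and 22 in WT (0.56).

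The lists set the limits of these results. The SMC1A lists held 28151 and 20689 peaks in KO and 19882 and 20638 in WT, each down to a q just under 0.05, with median summits of 13 and 10 fragments in KO and 12 and 11 in WT. A summit of 6 fragments is near the lower end of what was listed, so absence from a list is not absence of binding. For CTCF the fragments behind a typical summit were 22 and 25 in KO and 15 in WT.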

How the data were processed

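Peak lists of CUT&RUN libraries from sorted DP thymocytes were used as deposited. Each holds, per peak, the fold enrichment at the summit (a ratio), a −log10 p and a −log10 q that the authors' caller wrote. MACS2, Bowtie2, Trimmomatic 1.24, SAMtools, deepTools, R 4.12 and the build mm10 are named per the submitters' processing notes. Caller settings and any control library are not given in the sources used. The −log10 q and fold values were used only to describe or rank peaks within a list. Summit fragment numbers were recovered from the deposited fold and −log10 p, assuming that 1 was added to pile-up and background, and were whole within 0.001 in at least 3999 of 4000 peaks tried per list.

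From these lists, peaks on standard chromosomes were assigned by summit to windows around RefSeq gene bodies (GRCm38.p6) and merged per mark at 1 base of overlap. SMC1A density was log2 of peaks plus 0.5 per 1000000 peaks of the list, fitted with limma 3.58.1 (R 4.3.3) with a mean-variance trend over genes with a mean of 5 or more peaks, with Benjamini-Hochberg adjustment and a threshold of 0.05. Python 3.11.15 was used for the regions, and both steps were tested on simulated data. Fitted n was 2 lists a genotype. CTCF had 1 WT list, so no test was made. Same-numbered replicates share a batch per the labels, which pairs the SMC1A lists, while the correlation of their deviations from the group means was 0.0034 over 8862 genes.

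The 5 genes and all gene lists were chosen with earlier results of these data known. Regions were named by rule: per locus or flank and mark the 3 strongest held by every list, lost and gained regions up to 6 per direction, and regions within 1 kb of a start; the 281 and 331 kb stretches, the fourth shared desert region and the other lists' overlaps were described after their values were seen. Alternatives covered the −log10 q minimum, list length, overlap, window, pseudocount, filter, centring, replicate block and each list left out. A second WT CTCF sample and samples of H3K27ac, IgG and input were not used here.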

Additional observations from a re-analysis of the deposited data

How the results depend on the processing

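With lists of equal length, the 3 lost SMC1A regions at the 5 loci were 7 of 61 (11.5%, against 7.85% of all regions). The 4 gained ones were 2 of 51 there (3.92%, against 9.93%). With peaks of −log10 q of 5 or more, 4 were lost (10.8%, against 4.68%) and 6 gained (16.2%, against 12.9%). In gene bodies plus 20 kb, 1 of 34 was lost (2.94%, against 4.15%) and 3 of 33 were gained (9.09%, against 13.1%). With 1 list left out, a region needs fewer lists to agree. Lost regions at the loci then numbered 6 (9.5%, against 5.9% of all regions) to 22 (24.2%, against 15.6%). Gained regions there numbered 7 (11.7%, against 21.0%) to 26 (26.3%, against 31.6%). In the flanks, 4 (12.1%, against 5.9%) to 9 (20.9%, against 15.6%) were lost. Gained flank regions numbered 3 (9.4%, against 21.1%) to 29 (42.6%, against 31.6%). The 2 lost flank regions became 3 with lists of equal length (9.38%, against 7.85%) and 3 with peaks of −log10 q of 5 or more (13.0%, against 4.68%). The 1 gained flank region became 2 with peaks of −log10 q of 5 or more (7.69%, against 12.9%) and 0 with lists of equal length (against 9.93%). CTCF regions lost at the loci, 17 as reported, numbered 4 with peaks of −log10 q of 5 or more (6.56%, against 7.96% of all regions). They numbered 9 in gene bodies plus 20 kb (18.4%, against 18.9%). With a KO list left out they numbered 17 (19.1%, against 19.6%) to 61 (59.2%, against 53.8%). Gained CTCF regions, 1 as reported, numbered 2 with lists of equal length (5.88%, against 10.4%) and 0 in gene bodies plus 20 kb (against 8.29%). With a KO list left out the gained ones numbered 3 (6.67%, against 18.6%) to 66 (47.8%, against 47.1%). The share of SMC1A regions overlapping CTCF was 58.4% with the WT CTCF list alone and 90.9% with peaks of −log10 q of 5 or more, beside 70.1% and 94.6% of all regions. The Bcl11b density within 100 kb kept its sign under all 11 alternatives and lost its call under 8. These were −log10 q of 5 or more (−0.63, limma adjusted p 0.305), lists of equal length (−1.03, 0.284), no filter on low values (−0.71, 0.113), the median of each list set to 0 (−0.61, 0.404), the replicate block (−0.71, 0.106) and 3 of the 4 left-out lists, over which it ranged from −0.88 to −0.54. The cause was not tested. The call held with a pseudocount of 2, with 50 kb windows and without KO replicate 1, where the KO arm is 1 list assumed to vary like the WT pair. Ets1 turned positive with −log10 q of 5 or more (0.14), with the median of each list set to 0 (0.0623) and without WT replicate 2 (0.11), and ranged from −0.19 to 0.11 over the left-out lists. Gata3 within 1 Mb turned to −0.0204 with −log10 q of 5 or more and to −0.0030 with lists of equal length, and stayed between 0.01 and 0.31 over left-out lists. No alternative brought a call for Tcf7, Lef1 or Ets1, or for either gene within 1 Mb; the replicate block changed no other call of a member. The number of genes called within 100 kb, 169 of 8862 as reported, was 42 with the replicate block, 59 without the filter, 15 with −log10 q of 5 or more, 0 with equal lists (946 at an unadjusted p under 0.05) and 0 to 78 with 1 list left out. Within 1 Mb, 1974 calls became 1472 with the block, 0 with equal lists (3738 at an unadjusted p under 0.05), 348 with −log10 q of 5 or more and 995 with the median of each list set to 0. SMC1A regions lost or gained at the loci had at most 20 fragments at the summit.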
